A study of Homo sapiens with 6 samples.

Results

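The MCM helicase and replication licensing genes were examined in 22RV1 cells, a human castration-resistant prostate cancer (CRPC) cell line. They are MCM2, MCM3, MCM4, MCM5, MCM6, MCM7, MCM10, CDC6, CDT1 and GMNN, chosen by gene symbol, and all 10 were found among the 26255 genes listed for each sample. The cells were kept in RPMI 1640 with 10% FBS and received vehicle (DMSO, 3 samples) or 10 nM bruceantin (BCT, 3 samples), a plant quassinoid, for 24 h. Total RNA was the input to RNA-seq libraries made with a TruSeq RNA kit, which gave each gene a level in FPKM. These are fragments counted per kilobase of transcript and scaled to the depth of the library, a unit per length that allows genes to be compared. All samples come from this single cell line, and nothing in the labels says whether the replicates were separate cultures, so the p-values measure the spread between these samples only.

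Licensing is the step that marks each origin of DNA replication for use in the coming S phase. In G1, the origin recognition complex together with CDC6 and CDT1 loads the ring of MCM2 to MCM7, the core of the replicative helicase, onto DNA. Geminin, the product of GMNN, binds CDT1 and blocks loading for the rest of the cycle, and MCM10 takes part later, when CDC45 and the GINS complex turn the loaded ring into an active helicase. Many of these genes are textbook targets of E2F transcription factors and mark proliferating cells.

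The deposited values hold no read counts, and low FPKM values gave relative depths of 1.05 to 1.13 for the BCT samples and 0.878 to 1 for the DMSO samples, with DMSO replicate 1 set to 1. BCT replicate 1 lay nearer to the DMSO samples than its partners did, with a mean correlation across tested genes of 0.893 against 0.853 and 0.854, so the fold changes are also given without it. All 8 luminal prostate markers examined, KRT8, KRT18, EPCAM, CDH1, FOLH1, HOXB13, TMPRSS2 and STEAP2, reached 1 FPKM. They did not move together: KRT18 (mean 337 FPKM with DMSO and 1109 FPKM with BCT) and KRT8 (270 and 610 FPKM) were called higher by the test given below, TMPRSS2 (12.7 and 4.22 FPKM) and STEAP2 (26.6 and 8.52 FPKM) were called lower, and the other 4 were not called. Their summed level was 913 to 920 FPKM with DMSO and 1901 to 2080 FPKM with BCT. Of 9 markers of leukocytes, endothelium and fibroblasts, 3 reached 1 FPKM (CD68, COL1A1 and LUM), and the summed level of all 9 was 4.64 to 5.86 FPKM with DMSO and 11.8 to 15.3 FPKM with BCT. In that sum CD68 went from a mean of 2.50 to 6.39 FPKM and COL1A1 from 1.43 to 5.83 FPKM, while LUM went from 1.01 to 0.574 FPKM and DCN was at 0.0977 and 0.0943 FPKM. PTPRC, PECAM1 and VWF stayed near 0 and CD3E was at 0 in every DMSO sample and at 0.035, 0.067 and 0.033 FPKM in the BCT samples. The part of these markers in the results was not tested.

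The helicase genes fell together in BCT-treated cells. A gene was called when its change exceeded 0.85 on the log2(FPKM + 0.1) scale with a false discovery rate (FDR) below 0.05 (SE in brackets below is the standard error of the log2 fold change, and adjusted p-values are Benjamini-Hochberg values) in a limma fit over the 12729 genes whose mean reached 1 FPKM. Of the 10 licensing genes, which all passed the filter on low values, 9 were called lower and 0 higher, where 17.8% of all tested genes were called lower and 31.6% in either direction. By the FDR alone all 10 were lower, against 42.8% of all tested genes lower and 39.3% higher, and 8 of the 10 lay below -1.5 with that FDR, against 5.97%. Their median log2 fold change was -1.82 against -0.04 for all tested genes. In all 10 genes every BCT sample lay below every DMSO sample, a pattern that 44.3% of all tested genes shared, and 85.3% had no overlap in either direction. In bulk RNA, fewer cells in the phases that express these genes and less RNA of them per cell cannot be told apart.

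**Figure D1:**
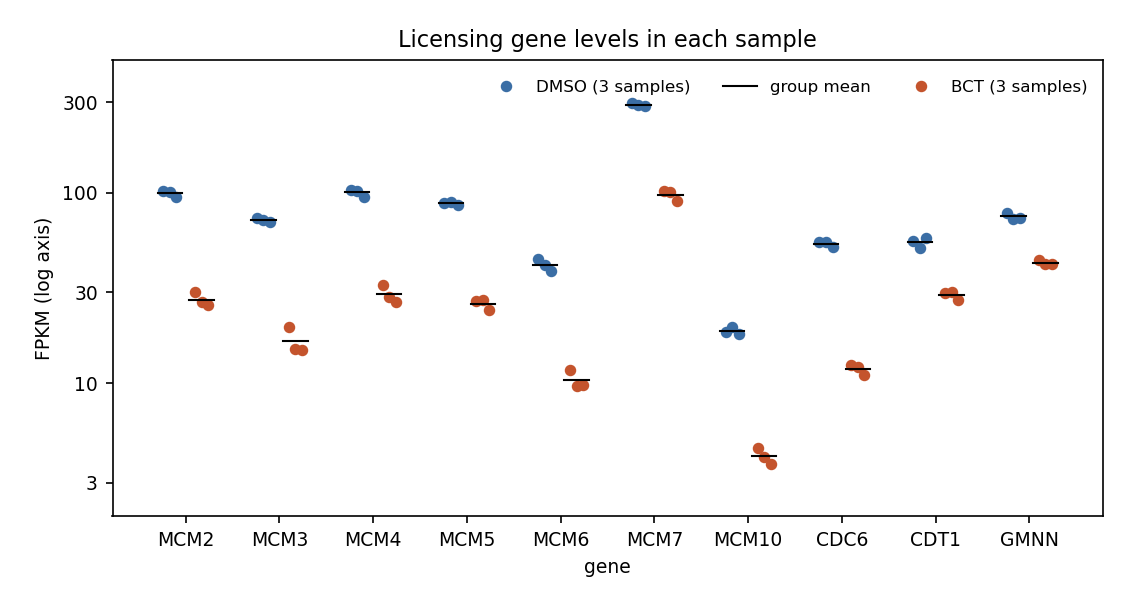
Level of each licensing gene in FPKM (log axis) in the 3 DMSO samples (blue) and the 3 BCT samples (red), replicates 1 to 3 from left to right, with the group means as black lines. The groups do not overlap in any gene, and the distance between them is smallest for CDT1 and GMNN, whose means with BCT were 52.8% and 57.2% of those with DMSO.

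MCM2, a subunit that also carries a histone-binding tail, was at 102, 101 and 95.6 FPKM in the DMSO samples, against 29.95, 26.65 and 25.7 FPKM after BCT, in the order of replicates 1 to 3. Its level averaged 99.6 ± 3.50 FPKM in the vehicle group and 27.4 ± 2.25 FPKM in the treated group (SD, n = 3 each), which is a log2 fold change of -1.86 (SE 0.07, adjusted p = 3.3e-07 in limma). The lowest DMSO sample was 3.19 times the highest BCT sample.

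MCM3 was at 74.0, 72.2 and 70.4 FPKM in the DMSO samples, against 19.7, 15.02 and 14.9 FPKM after BCT, with the largest fold change of the ring subunits at -2.13 (SE 0.10), although its interval (-2.37 to -1.89) overlapped those of MCM6, MCM2 and MCM4. It was also the subunit with the widest relative spread among BCT samples, a coefficient of variation of 16.7%, since replicate 1 stood above the others. Without BCT replicate 1 its log2 fold change was -2.26. MCM6 was at 45.0, 41.9 and 39.0 FPKM in the DMSO samples, against 11.8, 9.71 and 9.82 FPKM after BCT. With a log2 fold change of -2.001 (SE 0.09) its BCT mean was 24.9% of the DMSO mean, and it was the ring subunit with the lowest level in both groups.

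MCM4 and MCM5 had close fold changes with overlapping intervals. MCM4, one of the subunits that form the catalytic MCM4-MCM6-MCM7 core, was at 104, 102 and 95.6 FPKM in the DMSO samples, against 32.6, 28.5 and 26.6 FPKM after BCT (log2 fold change -1.78, SE 0.08). MCM5, which sits beside MCM2 at the gate where the ring opens, was at 88.5, 89.5 and 86.4 FPKM in the DMSO samples, against 27.0, 27.3 and 24.3 FPKM after BCT (log2 fold change -1.75, SE 0.06). Their BCT means were 29.1% and 29.7% of the DMSO means.

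MCM7 had the highest level of the 10 genes in both groups and the smallest fall of the ring subunits, with an interval (-1.70 to -1.44) that overlapped those of MCM4 and MCM5. It was at 296, 288 and 286 FPKM in the DMSO samples, against 102, 101 and 90.5 FPKM after BCT. The group means of 290.0 ± 5.42 and 97.8 ± 6.38 FPKM (SD, n = 3 each) gave a log2 fold change of -1.57 (SE 0.06, adjusted p = 3.7e-07 in limma), and the BCT mean was 33.7% of the DMSO mean.

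CDC6, the ATPase that joins the origin recognition complex to recruit the helicase, fell the most of the 10 genes. It was at 55.4, 55.4 and 51.8 FPKM in the DMSO samples, against 12.5, 12.1 and 11.1 FPKM after BCT, a log2 fold change of -2.18 (SE 0.06, 95% interval -2.32 to -2.04, adjusted p = 1.6e-07 in limma). Only 236 of the 12729 tested genes had a lower log2 fold change. MCM10, which is no part of the ring and acts when origins fire, followed closely. It was at 18.5, 19.7 and 18.0 FPKM in the DMSO samples, against 4.55, 4.08 and 3.77 FPKM after BCT, a log2 fold change of -2.16 (SE 0.08). The intervals of CDC6, MCM10, MCM3 and MCM6 overlapped, so their order is not resolved.

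CDT1 and the gene of its inhibitor geminin had the smallest differences. CDT1 was at 55.9, 51.4 and 57.9 FPKM in the DMSO samples, against 29.7, 30.1 and 27.5 FPKM after BCT, a log2 fold change of -0.92 (SE 0.06, 95% interval -1.06 to -0.77, adjusted p = 3.2e-06 in limma). GMNN was at 78.9, 73.0 and 74.1 FPKM in the DMSO samples, against 44.5, 42.4 and 42.2 FPKM after BCT. Its log2 fold change of -0.80 (SE 0.05, 95% interval -0.92 to -0.69, adjusted p = 2.4e-06 in limma) passed the FDR but not the fold change threshold, so GMNN is the member that was not called. The threshold lies inside the intervals of both genes, and the call alone does not set them apart. CDT1 also lost its call after rescaling to equal FPKM sums, at -0.15, with the top gene left out of that sum, at -0.53, and under quantile normalization, at -0.84.

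**Figure D2:**
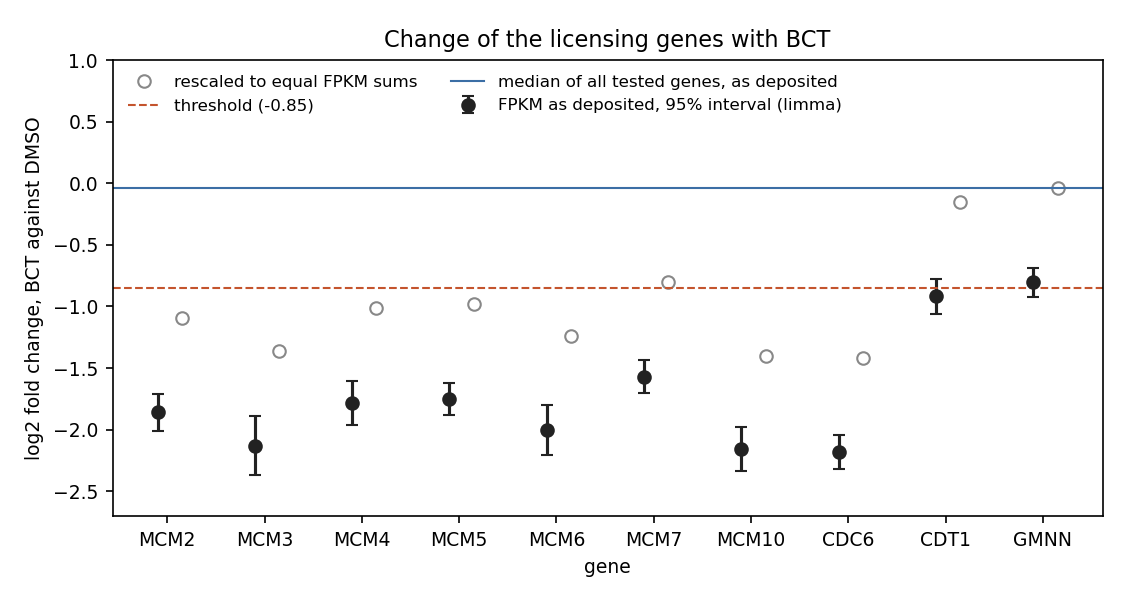
Log2 fold change of each licensing gene, BCT against DMSO, on the log2(FPKM + 0.1) scale, with the 95% interval from limma (filled points) and after bringing all samples to an equal FPKM sum (open points). The dashed line is the threshold of -0.85 and the blue line the median of all tested genes as deposited. CDC6 is lowest at -2.18, and only the intervals of CDT1 and GMNN reach the threshold.

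The size of every difference depends on how the samples are scaled. A single gene, MIR6087, held 31.7% to 55.3% of the FPKM sum of a sample, with the larger shares under DMSO. A rescaling to equal sums raised the log2 fold change of the median gene by 0.76, and by 0.38 when that gene was left out of the sum. The licensing genes moved up with it, MCM7 to -0.80 (no longer past the threshold), CDT1 to -0.15 and GMNN to -0.04 under equal sums. After rescaling to equal sums, CDT1 (adjusted p = 0.40 in limma) and GMNN (adjusted p = 0.84 in limma) no longer passed the FDR. Relative to the median of all tested genes, CDC6 was at -2.14 as deposited and at -2.14 after that rescaling, MCM7 at -1.53 and -1.52, and GMNN at -0.77 and -0.76. The rescaling multiplies all genes of a sample by the same factor, so this closeness is fixed in advance and is no test. Quantile normalization does not use 1 factor per sample. Under it, the values relative to the median were -2.16 for CDC6, -1.34 for MCM7 and -0.72 for GMNN.

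Ratios within a sample do not depend on such scaling. The log2 level of each gene was therefore compared with the mean log2 level of MCM2 to MCM7 in the same sample, by a two-sided exact permutation test that cannot give a p below 0.1 with 3 samples a group. Against this mean, GMNN was at -0.35 ± 0.05 with DMSO and at 0.70 ± 0.09 with BCT (SD, n = 3 each), a difference of 1.05 (exact permutation p = 0.1). CDT1 was at -0.80 ± 0.12 and at 0.13 ± 0.10, a difference of 0.93 (exact permutation p = 0.1). Both genes were thus below this mean log2 level in every DMSO sample and above it in every BCT sample. CDT1 was above it by only 0.02 in BCT replicate 1. This mean is of log2 levels and not of FPKM, and the side on which a gene lies compares FPKM between genes. CDC6 went the other way, by -0.34, and MCM10 by -0.33, with groups that did not overlap (exact permutation p = 0.1 for each, n = 3 each).

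The balance between CDT1 and geminin was not shown to move. The ratio of CDT1 to GMNN was 0.709, 0.704 and 0.782 with DMSO and 0.666, 0.711 and 0.651 with BCT. The groups overlapped, and the log2 difference of -0.11 had an exact permutation p of 0.3 (n = 3 each). Without DMSO replicate 3, the sample with the highest ratio, the difference was -0.07. The ratio of CDC6 to CDT1, which work together in loading, was 0.991, 1.08 and 0.894 with DMSO and 0.420, 0.402 and 0.403 with BCT, without overlap (exact permutation p = 0.1, n = 3 each).

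Within the ring, the share of MCM7 was higher in every BCT sample than in any DMSO sample. It made up 41.7%, 41.5% and 42.5% of the summed FPKM of MCM2 to MCM7 with DMSO and 45.8%, 48.4% and 47.2% with BCT, a difference of 5.24 percentage points. MCM3 went from 10.4% ± 0.04 to 7.94% ± 0.82 and MCM6 from 6.06% ± 0.28 to 5.02% ± 0.31 (SD, n = 3 each). The groups did not overlap in these 3 subunits or in MCM2 (exact permutation p = 0.1 for each, the smallest possible). MCM4 (p = 0.3) and MCM5 (p = 0.8 by the same exact test) had overlapping shares. The difference in MCM5 share, -0.11 percentage points, was 0.16 without BCT replicate 1, and that of MCM4, -0.44 points, was -0.71 without BCT replicate 1 and -0.26 without BCT replicate 2. The highest subunit was 6.93 ± 0.38 times the lowest with DMSO and 9.42 ± 0.86 times with BCT (SD, n = 3 each). In all, 23 such ratios and shares were tested, and the smallest adjusted p over them was 0.13.

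**Figure D3:**
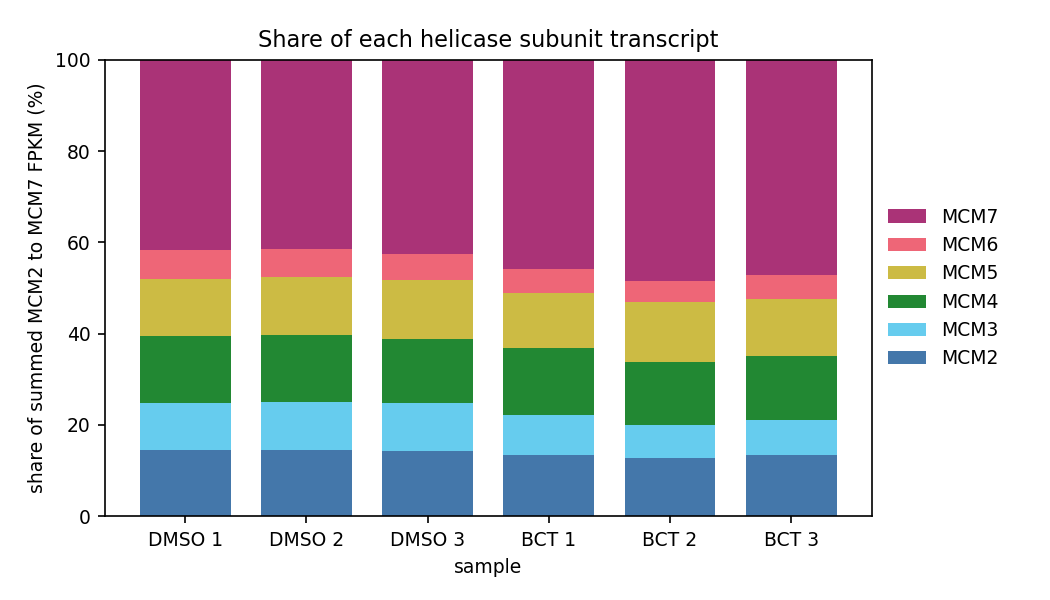
Share of each of MCM2 to MCM7 in their summed FPKM, in percent, for each of the 6 samples. The MCM7 segment is 41.5% to 42.5% of the bar with DMSO and 45.8% to 48.4% with BCT, while the segments of MCM3 and MCM6 are narrower with BCT.

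The order of levels shifted accordingly. With DMSO, MCM7 led, followed by MCM4 and MCM2, then MCM5, then GMNN and MCM3, then CDT1 and CDC6, then MCM6, with MCM10 last. The ranges overlapped between MCM4 and MCM2, between GMNN and MCM3, and between CDT1 and CDC6. With BCT, GMNN stood second behind MCM7, at 43.1 ± 1.28 FPKM (SD, n = 3). MCM4, CDT1, MCM2 and MCM5 followed, each overlapping its neighbor in that order. MCM3 came next, then CDC6 and MCM6 with overlapping ranges, and MCM10 stayed last.

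Leaving out BCT replicate 1, the BCT sample with the highest level in all of these genes but MCM5 and CDT1, moved their median log2 fold change from -1.82 to -1.89 and changed no call among them. Without it MCM2 was at -1.92, MCM3 at -2.26, MCM4 at -1.86, MCM5 at -1.77, MCM6 at -2.09 and MCM7 at -1.60. MCM10 was then at -2.23, CDC6 at -2.22, CDT1 at -0.93 and GMNN at -0.83.

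Positions are given as the deposited annotation lists them on hg19, with 1 added to the start. MCM2 lies on chromosome 3 from 127317200 to 127341278, MCM3 on chromosome 6 from 52128812 to 52149679, MCM4 on chromosome 8 from 48872763 to 48890719 and MCM5 on chromosome 22 from 35796116 to 35820495. MCM6 lies on chromosome 2 from 136597196 to 136634047, MCM10 on chromosome 10 from 13203554 to 13253104 and CDC6 on chromosome 17 from 38444146 to 38459413. CDT1 is on chromosome 16 from 88870186 to 88875666 and GMNN on chromosome 6 from 24775159 to 24786325. The 10 genes thus lie on 9 chromosomes, with MCM3 and GMNN on opposite strands of chromosome 6.

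MCM7 is listed on chromosome 7 from 99690351 to 99723128, a span that the files give unchanged to AP4M1, TAF6 and CNPY4, while GENCODE places MCM7 itself from 99689856 to 99699563 on the minus strand. TAF6, a subunit of the general transcription factor TFIID, was at 54.4 FPKM with DMSO and 47.0 FPKM with BCT on average (log2 fold change -0.21, not called). AP4M1, which runs in the opposite direction from near the start of MCM7, was at 15.05 and 11.3 FPKM (-0.41, not called), and CNPY4 at 8.35 and 6.23 FPKM (-0.42, not called). None of the 2467 exonic bases of the main MCM7 transcript lies in an exon of TAF6 or AP4M1. MIR25, MIR93 and MIR106B lie in intron 13 of that transcript. MIR93 and MIR106B were listed at 0 in every sample, and MIR25 at 427 FPKM in DMSO replicate 2 and at 0 elsewhere.

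Other neighbors within 2 kb were few. PRKDC, a DNA repair kinase gene read away from MCM4, is listed 19 bases from it and was at 15.04, 22.1 and 18.3 FPKM in the DMSO samples, against 20.8, 19.1 and 20.6 FPKM after BCT (log2 fold change 0.14, adjusted p = 0.32 in limma). MCM4 was called and PRKDC was not, and the difference between them was not tested. APRT, a purine salvage gene on the opposite strand, is listed 210 bases from CDT1. It was at 378, 366 and 382 FPKM in the DMSO samples, against 225, 197 and 180 FPKM after BCT, a log2 fold change of -0.91 beside -0.92 for CDT1. The library kit does not mark strand, and whether reads of either gene reached the other was not tested. Near MCM7, COPS6 was at 183 and 186 FPKM and MBLAC1 at 2.24 and 3.42 FPKM on average with DMSO and BCT, and neither was called. GENCODE ends COPS6, on the plus strand, at 99689810, close to MCM7 from 99689856 on the minus strand. Whether reads of COPS6 and MCM7 reached each other was not tested either.

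The promoters of these genes were read for the letters that E2F factors are known to bind. RefSeq promoter windows on GRCh38.p14, from 250 bases before to 50 after a transcript start, were searched on both strands for 4 words of 8 letters, TTTCCCGC, TTTCGCGC, TTTGCCGC and TTTGGCGC, some of which overlap where they face each other. Windows were matched by symbol for 8 of the 10 genes (not MCM4 or MCM5), and 7 of these 8 held a word. In MCM7 it was in 1 of 3 windows and in GMNN in 1 of 2. Of all 35116 windows, 3.31% held one, and of the 9455 tested genes with a window, 6.78% had one in at least 1 window. A match is a description of letters only.

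These 30-base stretches show the word, in capitals, as it stands in each of the 7 genes, 5′ to 3′ on the strand of the gene; 12 capitals are a pair of overlapping words facing each other. The positions are chr3:127598404-127598433 for MCM2, chr6:52284728-52284757 for MCM3, chr2:135876513-135876542 for MCM6, chr7:100101388-100101417 for MCM7, chr17:40287875-40287904 for CDC6, chr16:88803743-88803772 for CDT1 and chr6:24775322-24775351 for GMNN. MCM3, MCM6 and MCM7 are on the minus strand and the others on the plus strand, and where a gene has more than 1 stretch the one nearest the start is shown.
MCM2: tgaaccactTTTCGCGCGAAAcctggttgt
MCM3: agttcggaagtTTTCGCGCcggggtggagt
MCM6: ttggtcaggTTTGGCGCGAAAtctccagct
MCM7: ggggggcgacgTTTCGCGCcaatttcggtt
CDC6: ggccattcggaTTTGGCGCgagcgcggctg
CDT1: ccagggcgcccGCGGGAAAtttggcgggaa
GMNN: gctgggtcggtTTTGGCGCgctctcacttc

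MCM6 carries the facing pair at 2 places, at -152 to -141 and at -90 to -79 (counted with the first transcribed base as 0), and is shown with the 160 bases before the start on GRCh38.p14 (chr2:135876444-135876603, minus strand) because no other member had as many words.
MCM6: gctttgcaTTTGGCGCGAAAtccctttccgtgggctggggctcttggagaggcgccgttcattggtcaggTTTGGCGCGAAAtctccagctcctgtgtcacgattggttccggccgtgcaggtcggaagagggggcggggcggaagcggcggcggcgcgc

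CDT1 and GMNN, the members with the smallest changes, held a word as did CDC6, the one with the largest. MCM10 held none in its window, which says only that these letters are not there. Among all tested genes with a window, a word was present in 8.69% of the genes called lower, 5.39% of those called higher and 6.57% of those not called. The letters CCAAT, bound by NF-Y, were in windows of 6 of the 8 members and in 34.6% of all windows, and the GC-box letters GGGCGG in those of 6 of the 8 and in 45.0% of all windows. Members are counted here by gene over all their windows and the percentages by single window, so these figures are unlike measures. A share by gene was not computed for these letters.

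Of the 7 genes of the origin recognition complex (ORC) and its partner LRWD1, 1 was called lower and 0 higher (0 and 4 after rescaling to equal FPKM sums), with a median log2 fold change of 0.23. Over all tested genes, 17.8% were called lower and 13.9% higher as deposited, and 5.25% lower and 44.1% higher after that rescaling, and the counts of this and the following lists are to be read against those shares. The call was ORC1, the subunit that varies through the cell cycle, at 14.01, 13.6 and 12.5 FPKM in the DMSO samples, against 4.17, 4.76 and 4.44 FPKM after BCT (log2 fold change -1.56, SE 0.07). ORC6 missed the threshold narrowly at -0.84, from 48.6 ± 1.71 to 27.1 ± 0.34 FPKM (SD, n = 3 each), and was past it without DMSO replicate 2 or without DMSO replicate 3, when 2 of the genes were called. ORC2 (0.32), ORC4 (0.61), ORC5 (0.45) and LRWD1 (0.23) had higher mean levels with BCT and passed the FDR without reaching the fold change threshold, and ORC3 was at -0.44. By the FDR alone, 3 of the 7 were lower and 4 higher, where 42.8% of all tested genes were lower and 39.3% higher by that measure.

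Of 14 genes of helicase activation and origin firing, 8 were called lower and 0 higher (3 and 2 after rescaling to equal FPKM sums, where 5.25% and 44.1% of all tested genes were), with a median of -0.95, against 17.8% of all tested genes called lower. GINS2, a subunit of the GINS complex that joins the loaded ring, was at 81.5, 77.2 and 78.8 FPKM in the DMSO samples, against 13.4, 9.21 and 9.14 FPKM after BCT, a log2 fold change of -2.91 (SE 0.14) below that of any licensing gene. Its partners GINS4 (-1.77), GINS1 (-1.68) and GINS3 (-1.03) were also called lower, as was CDC45 (-0.88), the other helicase cofactor. TICRR, which helps to load CDC45, fell from 6.42 ± 0.53 to 2.08 ± 0.27 FPKM (SD, n = 3 each), and WDHD1, which links helicase and polymerase, fell by 1.28 on the log2 scale. The kinase gene CDC7 (-0.49) and its activator DBF4 (-0.63) were not called. DBF4B was nearest to 0 of the list, at 0.14.

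**Figure D4:**
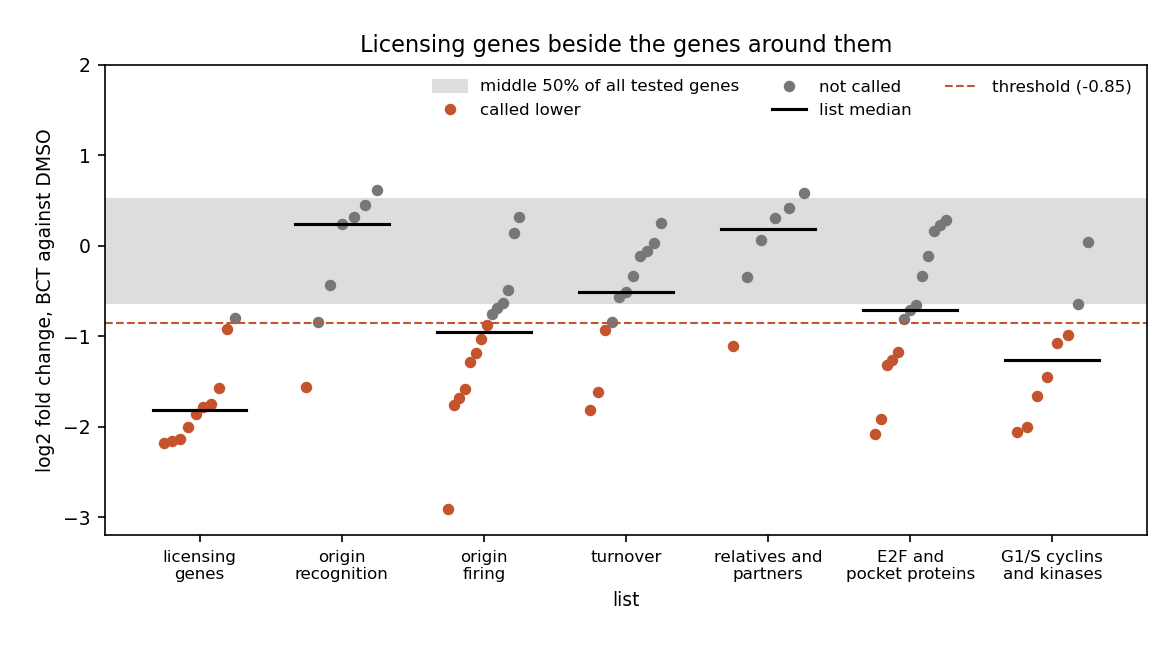
Log2 fold change, BCT against DMSO, of each tested gene in the licensing list and in 6 lists of related genes. Red points were called lower, gray points were not called, black bars are list medians and the gray band holds the middle 50% of all tested genes (-0.63 to 0.51). The licensing genes have a median of -1.82 and the origin recognition genes one of 0.23. The list of G1/S cyclins and kinases also holds the phosphatase gene CDC25A.

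Of 11 genes that control the turnover of CDT1, CDC6 and geminin, 3 were called lower and 0 higher (1 and 1 after rescaling to equal FPKM sums, against 5.25% and 44.1% of all tested genes), with a median of -0.51, and 17.8% of all tested genes were called lower. They were SKP2, a substrate receptor for CDT1, which fell from 31.4 ± 1.16 to 8.95 ± 1.47 FPKM, DTL, the receptor that targets CDT1 in S phase, from 25.7 ± 1.75 to 8.34 ± 0.24 FPKM, and CCNF, the receptor for CDC6 in G2, from 18.0 ± 0.80 to 9.47 ± 1.18 FPKM (SD, n = 3 each). The scaffold gene CUL1 was at -0.11 and FZR1, an activator of the complex that degrades geminin, was at 0.03 with overlapping groups. Changes of these transcripts say nothing of protein turnover, which was not measured.

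Among 6 tested relatives and partners of MCM and geminin, MCM8 was called lower, at 20.9, 21.8 and 20.9 FPKM in the DMSO samples, against 11.6, 8.93 and 8.98 FPKM after BCT (log2 fold change -1.11), and 0 genes were called higher (0 lower and 3 higher after rescaling to equal FPKM sums). The 1 of 6 stands beside 17.8% of all tested genes called lower, and the 3 of 6 beside 44.1% called higher under that scaling, so neither count sets the list apart. Its partner in recombination, MCM9, was at 5.50 ± 0.21 and 5.75 ± 0.16 FPKM (SD, n = 3 each), with overlapping groups and a log2 difference of 0.06. MCMBP, an MCM chaperone, was at -0.34 and MCM3AP, whose product binds MCM3, at 0.58, both short of the fold change threshold.

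The regulators of the G1/S transition moved in the same direction as the licensing genes where they were called in the deposited values. Of 13 genes of the E2F and pocket protein families, 5 were called lower and 0 higher (2 and 3 after rescaling to equal FPKM sums), with a median of -0.72. Of all tested genes 17.8% were called lower, and after that rescaling 5.25% lower and 44.1% higher. They were the activators E2F1 (-2.08), E2F2 (-1.91) and E2F3 (-1.26), the E2F partner TFDP1 (-1.32) and the repressor E2F8 (-1.17), while E2F4 was at 0.23 and E2F6, nearest to 0, at -0.11. E2F1 itself was at 50.8, 49.2 and 49.1 FPKM in the DMSO samples, against 13.6, 11.2 and 10.5 FPKM after BCT. Of 8 G1/S genes, cyclins and kinases with the phosphatase gene CDC25A, 6 were called lower (3 after that rescaling) and 0 higher. Among those 6 were CCNE1 (-2.06), CDK2 (-2.005), CCNE2 (-1.66), CCNA2 (-1.46) and CDK4 (-1.07). CDC25A (-0.64) was not called, and CCND1 was at 0.03 with overlapping groups.

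The genes most like the licensing genes were found by the root mean square distance between their 6 log2 values, centered on the DMSO mean, and the median centered profile of the 10 members, which was at -1.72, -1.86 and -1.93 in BCT replicates 1 to 3. They were OGDH, a citric acid cycle enzyme (distance 0.048), LIG1, the ligase that joins Okazaki fragments (0.056), DDC, a decarboxylase (0.056), CHAF1B, a subunit of the chromatin assembly factor CAF-1 (0.059), and E2F2 (0.060). LIG1 was at 51.4, 50.5 and 48.9 FPKM in the DMSO samples, against 16.2, 13.9 and 12.2 FPKM after BCT. Over only 6 samples in 2 groups, such likeness mostly restates a similar fold change.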

How the data were processed

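The authors deposited FPKM per gene, 1 file a sample and without read counts, made with Trimmomatic (0.38 in the submitters' processing notes), HISAT2 on hg19 and StringTie. The processing notes also name CASAVA and HTSeq, and the gene annotation is not given in the sources used here. The deposited scaling was kept. A filter required a mean of 1 FPKM or more, and log2(FPKM + 0.1), which understates changes of low genes, entered limma (version 3.58.1, R version 4.3.3), with eBayes moderation along a trend and Benjamini-Hochberg adjustment over 12729 genes. The fold change threshold follows the paper, which names no test for the genes. The fit was tested on simulated data that held no difference in scaling between samples, so that test does not bear on the scaling. Shares and ratios were compared by exact permutation tests (SciPy 1.17.1).

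The members and lists were chosen with earlier results of these data known. Named beside the members are up to 5 called genes with the largest change and the gene nearest 0 of each list, genes overlapping or within 2 kb of a member, the 5 most alike genes and cell type markers. The other ORC, GINS, CDC45, CDC7, DBF4, CUL1, MCMBP, MCM3AP, E2F4 and CDC25A values were chosen after they were seen. Of the related genes listed, HROB is given under its older symbol C17orf53, and MCMDC2, GMNC and MCIDAS were below the filter.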

Additional observations from a re-analysis of the deposited data

How the results depend on the processing

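All 10 fold changes kept their sign under the 18 alternatives set (pseudocount, filter, scaling, FDR, variance model, replicate block and each sample left out), and 176 of 180 values kept their side of the threshold. The 4 others were MCM7 (-0.80) and CDT1 (-0.15) after rescaling to equal FPKM sums, CDT1 without the top gene in the sum (-0.53) and CDT1 after quantile normalization (-0.84). A change of filter, FDR, variance model or replicate block cannot alter a fold change in this design, only its adjusted p or call. Signs kept there were fixed in advance, and only the pseudocount, scaling and left-out samples could move them. After rescaling to equal FPKM sums, GMNN kept its sign at only -0.04 (adjusted p = 0.84 in limma). With each sample left out, CDC6 stayed between -2.22 and -2.13, MCM7 between -1.60 and -1.51, CDT1 between -0.97 and -0.88 and GMNN between -0.83 and -0.77. The 49 recomputed ratios and shares moved by less than the larger of the SDs of the DMSO and BCT samples, a lenient measure, since the share of MCM5 changed sign (-0.36 to 0.16 points with a sample left out) and the share of MCM3 (-2.93 to -2.12 points) moved by more than its DMSO SD of 0.04.

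Over all tested genes, 2263 were called lower and 1764 higher. Equal sums gave 668 lower and 5614 higher (5.25% and 44.1%), and equal sums without the top gene 1208 and 3370. A mean of at least 5 FPKM left 1150 higher among only 9319 tested genes, 12.3% against 13.9% in the main fit. Under equal sums the calls lower and higher were 0 and 4 for origin recognition, 3 and 2 for origin firing, 1 and 1 for turnover, 0 and 3 for relatives, and 2 and 3 for the E2F families, with 3 lower G1/S genes. Without the top gene in the sum, 1 origin recognition gene was higher, 5 origin firing genes lower, and 0 relatives lower and 1 higher. These stand beside 9.49% of all tested genes lower and 26.5% higher in that setting. Without a filter, 1 relative was higher, beside 9.78% of all 26255 genes. Leaving out a sample gave 1 to 2 origin recognition genes lower. Whether the same replicate numbers in both groups pair the samples is not known. Correlations of deviations were 0.12, 0.03 and 0.03 for the same number and -0.12 to 0.07 for different numbers. With 3 samples a group these values cannot settle it. The replicate block gave 2266 lower and 1767 higher genes and changed no call among the licensing genes. The alternatives set for counts were not run. FPKM without counts leaves the depth behind each gene unknown, and it does not tell which scaling to prefer.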
